A study of Mus musculus with 4 samples.

Results

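The genes described here make up the degradative machinery of the lysosome: 13 hydrolases, 3 soluble cofactors, 9 membrane proteins, the transcription factor gene Tfeb, and 24 genes of the proton pump that acidifies the organelle. The first 26 were listed by name. The pump genes were taken by symbol, as the protein-coding genes whose names follow the Atp6v0, Atp6v1 and Atp6ap patterns in the GENCODE mouse annotation. Together they are 50 of the 35427 genes that the deposited values cover, and 44 of them were among the 14907 genes with enough reads to be measured. The rule itself uses names only, but the choice was made with earlier results of these data known.

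The RNA came from hippocampi of 4 months old C57BL/6J mice with the alleles P2RY12CreER and Rpl22HA (RiboTag). P2ry12 is a gene typical of microglia, and the Cre recombinase driven from it puts a tag on a ribosomal protein in those cells, which allows an antibody to recover the ribosomes together with the messages on them. All mice were fear conditioned. The control mice then slept for 6 hours, and the sleep-deprived mice stayed awake over the same 6 hours. Each sample pooled 2 mice, and the samples are described as technical replicates. Each group had 2 files, and group names were taken from the sample titles, since the treatment field names sleep deprivation for every sample.

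The files held between 14431647 and 14877011 estimated reads. Within each group the files were closer to each other than sampling noise allows for separate libraries (chi-square per degree of freedom 0.334 in control and 0.226 in sleep-deprived, against 69.2 to 69.4 between groups) and were counted as 1 sample. Every ratio below therefore compares 1 library with 1 library, has no replicate check and carries no p-value. The CPM of the files did not overlap between groups for 43 of the 44 measured members. That share was not computed over all measured genes, so the count says nothing particular about the members. Because the files of a group are so close, statements below that both agree describe 1 library and are not replication. Values are CPM, counts scaled to library size, after TMM scaling, a scaling that aligns the bulk of the genes of the libraries, and the bracketed range after a ratio is its 95% counting interval. A gene is called higher or lower when the ratio of sleep-deprived over control is at least 2-fold and the interval excludes 1. By this rule 632 of the 14907 measured genes were higher (4.24%) and 842 were lower (5.65%). The median log2 ratio over all measured genes was -0.01.

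The pulldown held messages of several cell types. The 15 microglial marker genes summed to 193.6 and 193.3 CPM in the control files and to 617.5 and 616.3 CPM in the sleep-deprived files, a ratio of 3.19 (3.06 to 3.32), and 12 of the 15 were higher. The 12 neuronal markers summed to 4163 and 4152 CPM against 3554 and 3546 CPM (0.854), the 9 of astrocytes to 2324 and 2322 against 1454 and 1451 CPM (0.625), and the 8 of oligodendrocytes to 3533 and 3519 against 2212 and 2205 CPM (0.626). No marker of these 4 lists was at 0 reads in both libraries. In a pulldown of this kind, changes in cell number, in message per cell and in carryover of messages from untagged cells cannot be told apart.

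Lysosomes break down material that reaches them from endocytosis, phagocytosis and autophagy. Their soluble hydrolases work at acid pH, which the vacuolar proton pump (V-ATPase) maintains: its cytosolic V1 sector hydrolyses ATP and its membrane V0 sector passes protons into the lumen. Tfeb encodes a transcription factor known to bind a short palindromic element in the promoters of many lysosomal genes. Microglia, the resident macrophages of the brain, are rich in lysosomal proteases and use them on engulfed material. Neurons use the same pump on lysosomes and, for loading transmitter, on synaptic vesicles.

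The element bound by Tfeb contains the E-box core CACGTG, and the longer form TCACGTG is read here on both strands. RefSeq promoter windows on GRCm38.p6, each from 250 bases before to 50 bases after a start site, were found for 41 of the 50 members. The core was present in 10 of these 41 genes (24.39%), against 2187 of all 27025 genes with a window (8.09%). The longer form, which contains the core, was present in 9 of the 41 (21.95%), against 1160 of all genes (4.29%). It was held by 3 of 11 hydrolase genes, 2 of 8 membrane protein genes and 4 of 18 pump genes with a window, and by 18 of 68 lysosomal genes outside the members (26.47%). The 4 windows printed here, in lower case with the longer form or its reverse complement in capitals, belong to members that lie at different ends of the results: a protease, the major lysosomal membrane glycoprotein, and the pump genes with the highest and the lowest ratio. They are the Ctsd window at chr7:142387778-142388077 on the minus strand, the Lamp1 window at chr8:13158911-13159210 on the plus strand, the Atp6v0e window at chr17:26676146-26676445 on the plus strand, and the Atp6v1a window at chr16:44139210-44139509 on the minus strand.
Ctsd: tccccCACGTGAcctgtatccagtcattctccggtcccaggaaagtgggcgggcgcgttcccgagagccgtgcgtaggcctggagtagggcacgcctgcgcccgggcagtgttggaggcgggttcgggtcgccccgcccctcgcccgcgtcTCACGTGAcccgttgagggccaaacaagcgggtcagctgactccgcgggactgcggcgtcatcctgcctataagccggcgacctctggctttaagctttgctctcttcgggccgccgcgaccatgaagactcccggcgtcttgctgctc
Lamp1: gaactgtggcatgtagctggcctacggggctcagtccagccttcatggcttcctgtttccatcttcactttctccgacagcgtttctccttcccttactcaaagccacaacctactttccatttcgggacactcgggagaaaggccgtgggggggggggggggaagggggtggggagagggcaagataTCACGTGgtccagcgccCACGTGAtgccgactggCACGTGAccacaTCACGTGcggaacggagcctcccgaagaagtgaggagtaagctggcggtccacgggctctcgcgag
Atp6v0e: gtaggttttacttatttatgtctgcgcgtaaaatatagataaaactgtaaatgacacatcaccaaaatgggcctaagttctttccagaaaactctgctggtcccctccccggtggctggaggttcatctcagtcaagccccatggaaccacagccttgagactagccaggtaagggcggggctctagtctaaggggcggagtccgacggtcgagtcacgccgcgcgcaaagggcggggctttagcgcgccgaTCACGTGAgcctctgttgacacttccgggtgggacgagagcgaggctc
Atp6v1a: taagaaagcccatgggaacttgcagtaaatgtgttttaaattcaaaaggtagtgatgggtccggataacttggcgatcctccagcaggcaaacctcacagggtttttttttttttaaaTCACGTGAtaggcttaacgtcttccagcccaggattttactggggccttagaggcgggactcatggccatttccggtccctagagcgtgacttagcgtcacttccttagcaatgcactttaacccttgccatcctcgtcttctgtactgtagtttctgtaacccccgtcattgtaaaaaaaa
The Lamp1 window holds 4 copies of the core, which start 61, 45, 28 and 15 bases before the start site. The Ctsd window holds 2 copies, and those of Atp6v0e and Atp6v1a hold 1 copy each. Members with the longer form did not share a direction between groups. Ratios above 1 were measured for Lgmn (1.86), Ctsd (1.77), Ctsa (1.32), Atp6v0b (1.77) and Atp6v0e (2.003), and ratios below 1 for Mcoln1 (0.959), Lamp1 (0.806), Atp6v0d1 (0.653) and Atp6v1a (0.599). A match describes the letters of the window only, and binding was not measured.

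Comparing hydrolases, membrane proteins and the pump between mice kept awake and mice left to sleep gave 5 members called higher and 0 called lower among the 44 measured, where 4.24% of all measured genes were higher and 5.65% lower. The 5 were the protease genes Ctss and Ctsc, the membrane protein genes Laptm5 and Cd68, and the pump gene Atp6v0e. The classes differed in their medians. The median ratio was 1.52 for the hydrolases, 1.24 for the soluble cofactors, 1.01 for the membrane proteins and 0.897 for the measured pump genes, with 0.764 for its V1 sector and 1.02 for its V0 sector. Without regard to size, the interval lay above 1 for 21 members and below 1 for 13, where 31.4% of all measured genes had an interval above 1 and 30.5% below. These are descriptions of a pair of libraries, and no test of the difference between classes was made.

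**Figure D1:**
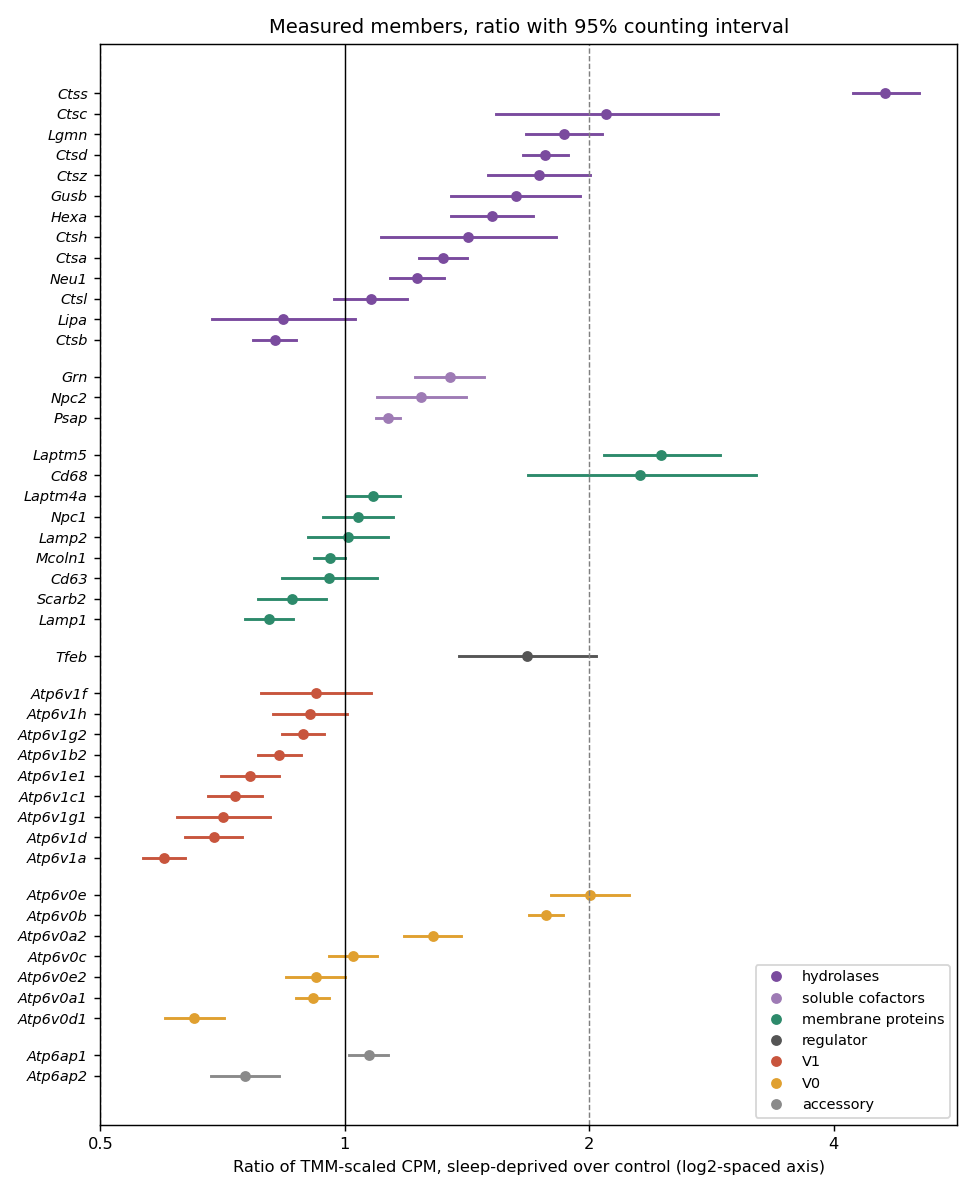
Ratio of TMM-scaled CPM, sleep-deprived over control, for the 44 measured members on a log2-spaced axis, grouped and coloured by class, with bars for the 95% counting interval and a dashed line at 2-fold. Most hydrolases lie to the right of 1, all 9 measured V1 genes lie to the left, and V0 genes spread from 0.653 to 2.003.

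Of the 13 hydrolase genes, all measured, 2 were higher, 0 were lower and 10 had an interval above 1. Summed over the class, the control files held 662.5 and 662.4 CPM and the sleep-deprived files 976.8 and 973.9 CPM, a ratio of 1.47 (1.44 to 1.51). Without Ctss the summed ratio was 1.29 (1.25 to 1.32) and the median 1.47. The 9 proteases, including legumain and cathepsin A, had a median ratio of 1.73, and the 3 glycosidases with the acid lipase a median of 1.37. The summed microglial markers had a ratio of 3.19 in the same libraries, and their part in the hydrolase values was not tested.

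Ctss, on chromosome 3 at 95526786-95556403 (GRCm38), encodes cathepsin S, a cysteine protease typical of microglia that remains active near neutral pH and trims the invariant chain in antigen presentation. It was at 36.4 and 36.7 CPM in the control files and at 169.2 and 169.3 CPM in the sleep-deprived files. Both sleep-deprived files lay far above both control files, and the ratio of 4.63 (4.22 to 5.09) was the highest of any member. In TPM, a unit per transcript length that allows levels to be compared between genes of a library, Ctss ranked 5 among the 13 hydrolases in control at 53.0 and 1 in the sleep-deprived library at 287.2. TPM values here are not for comparison between libraries, since their median ratio, sleep-deprived over control, was 1.16 over all measured genes.

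Ctsc, on chromosome 7 at 88278085-88310888, encodes cathepsin C, a dipeptidyl peptidase that activates other proteases. It was at 4.18 and 4.19 CPM in control and at 8.685 and 8.852 CPM in sleep-deprived files, a ratio of 2.09 (1.53 to 2.88). The interval is wide because the gene had 63 reads in control, against 124 in the sleep-deprived library. It was the lowest hydrolase by TPM in both libraries, at 2.82 and 8.46.

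Several other hydrolases had an interval wholly above 1 without reaching 2-fold. Lgmn, which encodes the asparaginyl endopeptidase legumain, went from 35.4 and 35.5 CPM to 66.0 and 66.0 CPM, a ratio of 1.86 (1.67 to 2.07). Ctsd, the gene of the aspartic protease cathepsin D, went from 101.5 and 101.0 CPM to 180.3 and 177.4 CPM, a ratio of 1.77 (1.66 to 1.88). Both sleep-deprived files were above both control files for each of these genes. Of the Ctsd exon bases 34.4% are shared on the same strand with the readthrough gene Gm49369, to which the authors' estimates gave 0 reads in 3 files and 42.3 reads in a sleep-deprived file, where Ctsd had between 1518 and 2553 reads. Ctsz, an exopeptidase gene, had a ratio of 1.73 (1.499 to 2.005), Hexa, a ganglioside-degrading glycosidase gene, 1.52 (1.35 to 1.71), and Ctsh, an aminopeptidase gene, 1.42 (1.11 to 1.82). Protein-coding transcripts held 21.4% of the Ctsh reads in control, against 25.9% in the sleep-deprived library. With these alone the Ctsh ratio was 1.73, and it was 1.19 when counts were divided by transcript length.

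Ctsa, which encodes a carboxypeptidase that also protects beta-galactosidase and neuraminidase in a complex, was the highest hydrolase by TPM in control (110.2). It was at 102.9 and 102.7 CPM in control and 135.5 and 136.1 CPM in sleep-deprived files, a ratio of 1.32 (1.24 to 1.41). Neu1, the sialidase of that complex, had a ratio of 1.23 (1.14 to 1.33). Its value depends on which transcripts are summed. In control, 12.9% of its reads were assigned to the protein-coding transcript and 87.1% to a transcript with a retained intron. With protein-coding transcripts only, Neu1 had a ratio of 0.427 and was called lower. Gusb, the beta-glucuronidase gene, had a ratio of 1.62 (1.35 to 1.95), and 3.68 with protein-coding transcripts only, which held 15.1% of its reads in control, against 33.5% in the sleep-deprived library.

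For the remaining 3 hydrolases no interval lay above 1. Ctsb, the gene of cathepsin B, was at 161.3 and 161.2 CPM in control and at 132.2 and 132.1 CPM in sleep-deprived files. Both sleep-deprived files were below both control files, and the ratio of 0.820 (0.771 to 0.871) was the lowest of the class. When counts were divided by transcript length it was 1.07. Ctsl, the gene of cathepsin L, had a ratio of 1.08 (0.970 to 1.19), and Lipa, which encodes the acid lipase that frees cholesterol from its esters, one of 0.840 (0.685 to 1.03), so neither interval excluded 1. With the transcript-length division Ctsl was at 0.874. Of the Ctsl exon bases 26.9% are also exons of an antisense gene, and exons of other genes also cover 17.4% of the bases of Ctsa, 12.8% of Ctsb and 12.8% of Hexa. Whether the authors used strand is not stated in the labels or headers.

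The 3 soluble cofactor genes each had an interval above 1, and 0 were called. Psap, whose product is cut into the saposins that present lipids to hydrolases, had the lowest ratio of the class and the highest TPM in control (289.2). It was at 427.8 and 429.4 CPM in control and 483.7 and 485.6 CPM in sleep-deprived files, a ratio of 1.13 (1.09 to 1.17). Grn, the gene of progranulin, was at 47.9 and 48.0 CPM in control and 65.0 and 64.2 CPM in sleep-deprived files, a ratio of 1.35 (1.22 to 1.49). Npc2, which encodes a carrier of cholesterol in the lumen and was the lowest of the class by TPM in control (19.3), was at 30.9 and 31.0 CPM in control and 38.4 and 38.5 CPM in sleep-deprived files, a ratio of 1.24 (1.096 to 1.409).

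**Figure D2:**
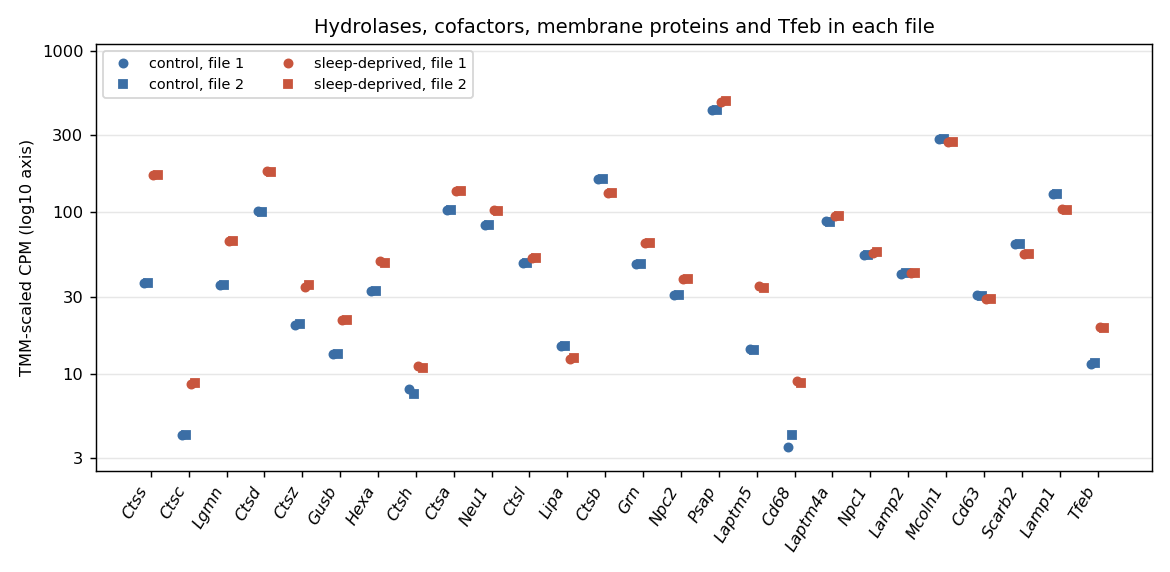
TMM-scaled CPM of each measured hydrolase, cofactor and membrane protein gene and of Tfeb in each of the 4 files, on a log10 axis. Files of a group nearly coincide, Ctss goes from about 36.5 to 169.3 CPM, and Cd68 shows the largest gap between the control files.

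Of the 9 membrane protein genes, all measured, 2 were higher and 0 lower, 3 had an interval above 1 and 2 an interval below 1. Laptm5, on chromosome 4 at 130913125-130936141, encodes a transmembrane protein of lysosomes in blood and immune cells. It was at 14.27 and 13.97 CPM in control and at 35.0 and 34.1 CPM in sleep-deprived files, with both sleep-deprived files above both control files and a ratio of 2.45 (2.09 to 2.90). Cd68, on chromosome 11 at 69664213-69666153, encodes a glycoprotein of macrophage lysosomes widely used to stain phagocytic cells. It was at 3.52 and 4.19 CPM in control and at 9.04 and 8.78 CPM in sleep-deprived files, a ratio of 2.31 (1.68 to 3.21).

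Cd68 was the least firmly measured of the called members. Its control files had 53 and 63 reads, 17.5% apart, which was the largest such gap among the measured members. In these control files 57.4% and 47.9% of its reads were assigned to the protein-coding transcript Cd68-201, and in both sleep-deprived files 100% were. With the protein-coding transcripts alone its ratio was 4.54. When counts were divided by transcript length it was 1.29, which ended the call.

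The other 7 membrane protein genes had ratios from 0.806 to 1.08 and a median of 0.959, and their summed ratio was 0.946 (0.920 to 0.973). Lamp1, which encodes the abundant glycoprotein that lines the lysosomal membrane, was at 129.8 and 129.4 CPM in control and at 105.1 and 104.0 CPM in sleep-deprived files. Both sleep-deprived files were below both control files, and the ratio of 0.806 (0.753 to 0.863) was the lowest of the class. Scarb2, the receptor that carries glucocerebrosidase to the lysosome, had a ratio of 0.861 (0.783 to 0.948). Cd63, a tetraspanin gene of late endosomes, had one of 0.957 (0.836 to 1.096), and Laptm4a, a relative of Laptm5, one of 1.08 (1.004 to 1.170).

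Mcoln1, which encodes the lysosomal calcium channel TRPML1, was the highest membrane protein gene by TPM (431.3 in control). It was at 284.2 and 282.7 CPM in control and at 271.4 and 272.0 CPM in sleep-deprived files, a ratio of 0.959 (0.917 to 1.002). Of its reads, 24.5% in control, against 24.8% in the sleep-deprived library were assigned to protein-coding transcripts, so its level is mostly that of transcripts with retained introns. Npc1, the gene of the membrane transporter that exports cholesterol, had a ratio of 1.04 (0.941 to 1.15). Its protein-coding transcripts held 12.6% of its reads in control, against 36.3% in the sleep-deprived library, and with these alone the ratio was 3.05 and the gene was called higher.

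For Lamp2 the gene total was near a ratio of 1 while not all of its transcripts were. The gene encodes a relative of Lamp1 that is made in 3 forms with different tails. The A form is the receptor of chaperone-mediated autophagy, the B form is common in muscle and takes part in the fusion of autophagosomes, and the C form has been linked to the uptake of nucleic acids. The gene total was at 41.4 and 42.3 CPM in control and at 42.2 and 42.2 CPM in sleep-deprived files, so that the groups overlapped, with a ratio of 1.01 (0.900 to 1.13).

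Within that total, the transcript of the A form (Lamp2-201, assigned to its form by the tail that the annotated sequence encodes) took 23.9% and 24.8% of the reads in the control files and 11.8% and 11.6% in the sleep-deprived files. The transcript of the C form (Lamp2-203) took 17.1% and 17.1% in control, against 35.8% and 35.6% in sleep-deprived files. Over the averaged files, the 95% exact binomial interval of the C form's share was 14.3% to 20.3% in control and 31.8% to 39.7% in the sleep-deprived library. The ratio of A form reads was 0.484 (0.359 to 0.646), that of B form reads (Lamp2-202) 0.873 (0.746 to 1.02), and that of C form reads 2.10 (1.66 to 2.67). The forms share most of their exons, and the split between them is the authors' estimate, whose error is not part of these intervals. Such shifts were not particular to Lamp2, for which 20.6% of reads were placed on other transcripts between the groups. For Cd63, with a gene ratio of 0.957, it was 45.6%, though its control files differed by 23.5%.

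Tfeb, on chromosome 17 at 47737030-47792419, was at 11.5 and 11.6 CPM in control and at 19.4 and 19.3 CPM in sleep-deprived files. Both sleep-deprived files lay above both control files, and the ratio of 1.68 (1.38 to 2.04) did not reach 2-fold. The activity of this factor depends largely on whether it is in the nucleus, which message levels do not show. How its reads were divided among transcripts was unstable, with 25.3% of them placed on other transcripts in one control file than in the other.

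The proton pump differed by sector in its median ratio, at 0.764 for V1 and 1.02 for V0. With protein-coding transcripts only, the V0 median was also below 1. Of the 24 pump genes, 18 were measured, 1 was higher and 0 were lower, 4 had an interval above 1 and 10 an interval below 1. The 6 that were not measured are subunit genes used mainly in other tissues, such as kidney, bone or testis. They had at most 6 reads in a library: 6 and 4 in control and sleep-deprived for Atp6v0a4, 2 and 4 for Atp6v1b1, 1 and 0 for Atp6v1c2 and for Atp6v1g3, 1 and 1 for Atp6v1e2, and 0 and 0 for Atp6v0d2, where a count of 0 allows up to 3 reads, or 0.199 CPM in control, against 0.212 CPM in the sleep-deprived library.

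All 9 measured genes of the V1 sector had a ratio below 1, and 7 had an interval below 1, with 0 called. Summed over the 13 listed V1 genes, the control files held 948.8 and 946.3 CPM and the sleep-deprived files 720.0 and 717.3 CPM, a ratio of 0.758 (0.739 to 0.778). The summed neuronal markers had a ratio of 0.854 and the summed astrocyte markers 0.625 in the same libraries, and their part in the V1 values was not tested. A ratio below 1 was also measured for 7575 of the 14907 measured genes.

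Atp6v1a, on chromosome 16 at 44085402-44139705, encodes the A subunit, which holds the catalytic site for ATP. It was at 208.5 and 208.2 CPM in control and at 125.1 and 124.6 CPM in sleep-deprived files. Both sleep-deprived files were well below both control files, and the ratio of 0.599 (0.565 to 0.636) was the lowest of any member. Atp6v1b2, the B subunit that alternates with A in the ATP-hydrolysing ring, had a ratio of 0.831 (0.782 to 0.883).

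The central stalk, which turns inside that ring, is made of subunits D and F. The ratio of Atp6v1d was 0.689 (0.636 to 0.747), but 62.6% of its reads in control were on a retained-intron transcript, and with protein-coding transcripts alone its ratio was 1.01. Atp6v1f had a ratio of 0.922 with an interval that included 1 (0.789 to 1.08). Among the peripheral stalk and regulatory subunits, ratios were 0.733 (0.678 to 0.792) for Atp6v1c1, 0.764 (0.7035 to 0.8286) for Atp6v1e1 and 0.906 (0.815 to 1.01) for Atp6v1h.

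The G subunit of the peripheral stalk had 2 measured genes, of which Atp6v1g2 is the form enriched in neurons. Atp6v1g1 was at 38.0 and 38.0 CPM in control and at 27.0 and 26.9 CPM in sleep-deprived files, a ratio of 0.709 (0.621 to 0.808). Atp6v1g2 was at 163.5 and 162.6 CPM in control and at 145.4 and 144.5 CPM in sleep-deprived files, a ratio of 0.889 (0.838 to 0.943). For both genes both sleep-deprived files lay below both control files, without reaching 2-fold. By TPM, Atp6v1g2 made up 74.97% and 74.38% of the G subunit messages in control, against 79.5% and 79.3% in sleep-deprived files. With protein-coding transcripts alone these shares were 69.5% and 69.8%.

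**Figure D3:**
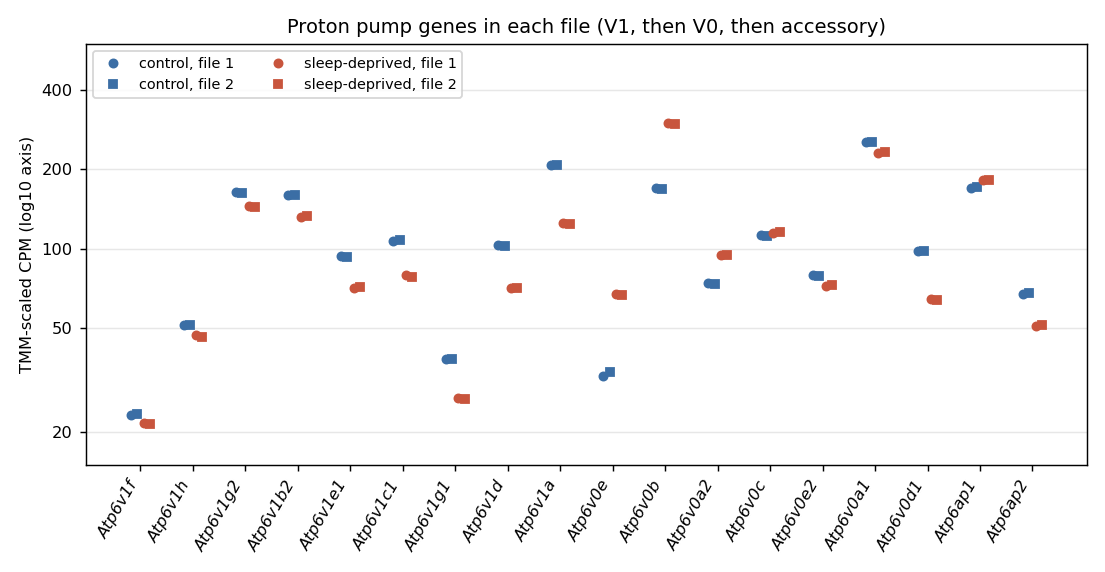
TMM-scaled CPM of the 18 measured pump genes in each of the 4 files, on a log10 axis, ordered as V1, V0 and accessory genes. The sleep-deprived files lie below the control files for every V1 gene, and above them for Atp6v0e, Atp6v0b, Atp6v0a2 and, by little, Atp6v0c in the V0 sector.

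The 7 measured genes of the V0 sector did not share a direction: 3 had an interval above 1, 2 an interval below 1, and 1 was higher. Summed over the 9 listed V0 genes, the control files held 819.8 and 819.7 CPM and the sleep-deprived files 945.3 and 943.8 CPM. This is a ratio of 1.15 (1.12 to 1.18), where the median ratio of the measured genes was 1.02. Atp6v0b alone went from 169.6 and 169.2 CPM to 301.4 and 298.0 CPM, so the sum does not describe the sector as a whole. Atp6v0e, on chromosome 17 at 26663231-26699647, encodes the small e subunit. It was at 32.7 and 33.9 CPM in control and at 66.9 and 66.8 CPM in sleep-deprived files, a ratio of 2.003 (1.796 to 2.237), which sits at the threshold. The call was lost without the first control file, without the first sleep-deprived file and with scaling by total reads, and the ratio was 1.505 when counts were divided by transcript length. Its paralog Atp6v0e2, enriched in brain, was at 79.1 and 78.5 CPM in control and at 72.1 and 73.0 CPM in sleep-deprived files, a ratio of 0.921 (0.846 to 1.002). By TPM, Atp6v0e made up 42.2% and 44.6% of the e subunit messages in control, against 52.6% and 53.0% in sleep-deprived files, so that the order of the paralogs changed.

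Atp6v0b, on chromosome 4 at 117884326-117887333, encodes a proteolipid of the rotating membrane ring. By TPM it was the highest pump gene in both libraries (611.8 and 1133). It was at 169.6 and 169.2 CPM in control and at 301.4 and 298.0 CPM in sleep-deprived files, with both sleep-deprived files above both control files and a ratio of 1.77 (1.68 to 1.86). Protein-coding transcripts held 48.6% of its reads in control, against 80.1% in the sleep-deprived library, and with these alone the ratio was 2.97 and the gene was called higher. A retained-intron transcript, Atp6v0b-204, took 29.3% and 28.3% of the reads in control, against 7.82% and 4.78% in sleep-deprived files. Atp6v0c, the main proteolipid of the ring, had a ratio of 1.02 (0.955 to 1.096). Its protein-coding transcripts held 89.0% of its reads in control, against 69.6% in the sleep-deprived library, and with these alone the ratio was 0.814.

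Atp6v0d1, on chromosome 8 at 105524465-105566047, encodes the d subunit that couples the V1 stalk to the membrane ring. It was at 97.9 and 98.1 CPM in control and at 64.04 and 63.87 CPM in sleep-deprived files. Its ratio of 0.653 (0.600 to 0.709) was the lowest of the V0 sector and below every V1 gene except Atp6v1a.

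The a subunit, which forms the path of the protons, is encoded by 4 genes, of which 2 were measured members and Tcirg1, the a3 gene, falls outside the symbol rule. Atp6v0a1, the a1 form common in neurons, was at 253.7 and 253.9 CPM in control and at 231.0 and 232.3 CPM in sleep-deprived files, a ratio of 0.913 (0.871 to 0.957). Atp6v0a2 was the lowest measured pump gene by TPM (26.2 in control). It was at 73.8 and 73.5 CPM in control and at 94.7 and 94.5 CPM in sleep-deprived files, a ratio of 1.28 (1.18 to 1.39). By TPM, Atp6v0a1 made up 64.7% and 64.4% of the messages of the family in control, against 60.7% and 61.5% in sleep-deprived files, Atp6v0a2 14.4% and 14.6% against 21.3% and 21.5%, and Tcirg1 20.7% and 20.9% against 17.7% and 16.5%. With protein-coding transcripts alone the shares over the averaged files were 79.3% in control against 74.3% in sleep-deprived for Atp6v0a1, 14.4% against 17.7% for Atp6v0a2 and 6.09% against 7.92% for Tcirg1, so that the direction for Tcirg1 was turned.

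The modest change of the Atp6v0a1 total went with another estimated split of its reads between its protein-coding transcripts. Atp6v0a1-201 took 19.0% and 20.7% of its reads in the control files and 61.9% and 60.6% in the sleep-deprived files. Atp6v0a1-202 took 73.0% and 71.2% in control, against 26.1% and 27.6% in sleep-deprived files. The ratio of reads was 2.81 (2.59 to 3.06) for the first and 0.339 (0.314 to 0.366) for the other, and the order of the pair was reversed between the groups. The split between the transcripts is the authors' estimate, whose error is not part of these intervals.

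**Figure D4:**
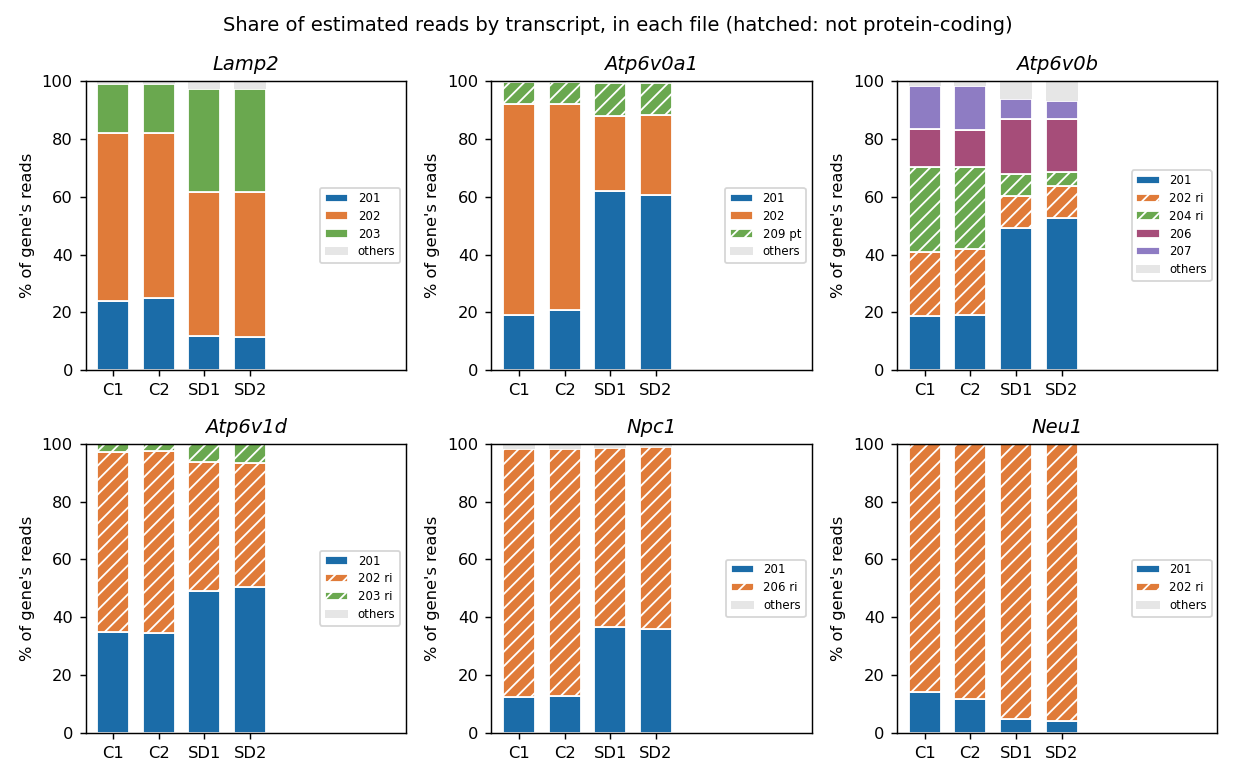
Percent of a gene's estimated reads assigned to each transcript, stacked, in the 2 control files (C1, C2) and the 2 sleep-deprived files (SD1, SD2) for 6 members; hatched bars are not protein-coding (ri, retained intron; pt, processed transcript). Lamp2-203 goes from 17.1% to about 35.7% and Atp6v0a1-201 from about 19.9% to 61.2% of reads, and Npc1 and Neu1 are mostly retained-intron transcripts in all 4 files.

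The accessory subunits went opposite ways. Atp6ap1, whose product helps to assemble the V0 sector, had a ratio of 1.07 (1.01 to 1.13). Atp6ap2, known also as the prorenin receptor, had one of 0.754 (0.684 to 0.831).

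Other lysosomal genes were taken from lists of known lysosomal functions, drawn up with earlier results of these data known. Over the 83 measured of 86 listed, the median ratio was 1.09. Over the 33 measured hydrolases outside the members, the median log2 ratio was 0.14, with 15 intervals above 1 and 6 below. Those with the highest TPM in control were the cathepsin F gene Ctsf, with a ratio of 1.17 that was 0.812 with protein-coding transcripts only, and the thioesterase gene Ppt2, with a ratio of 1.78 (1.65 to 1.94) and 36.6% of its exon bases inside Gm20460.

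Of 21 measured membrane protein genes outside the members, 1 was higher and 1 lower, with a median of 1.18. Slc11a1, which encodes a metal ion transporter of phagosomes in macrophages, was at 0.995 and 1.06 CPM in control and 3.18 and 3.12 CPM in sleep-deprived files, a ratio of 2.93 (1.62 to 5.56) that was 6.80 with protein-coding transcripts only. Tmem192, a membrane protein used to tag lysosomes for purification, was at 11.5 and 11.1 CPM in control and 4.52 and 4.53 CPM in sleep-deprived files, a ratio of 0.401 (0.296 to 0.537). The most abundant of this list by TPM, the lipid transporter gene Abca2, had a ratio of 1.13 (1.11 to 1.15) that was 0.899 when counts were divided by transcript length.

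The remaining lists had 0 genes called by the size rule. The median ratio was 1.03 for 5 cofactor genes, of which Creg1 had a ratio of 0.754 (0.666 to 0.853). It was 1.04 for 16 genes of enzyme delivery, of nutrient sensing at the lysosome and of the factors related to Tfeb, with 6 intervals above 1 and 7 below. It was 0.884 for 8 pump and pump assembly genes outside the symbol rule, with 3 intervals above 1 and 4 below. Dmxl2, which encodes a subunit of the rabconnectin complex that assembles the pump, had the highest TPM of these and a ratio of 1.45 (1.397 to 1.502).

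**Figure D5:**
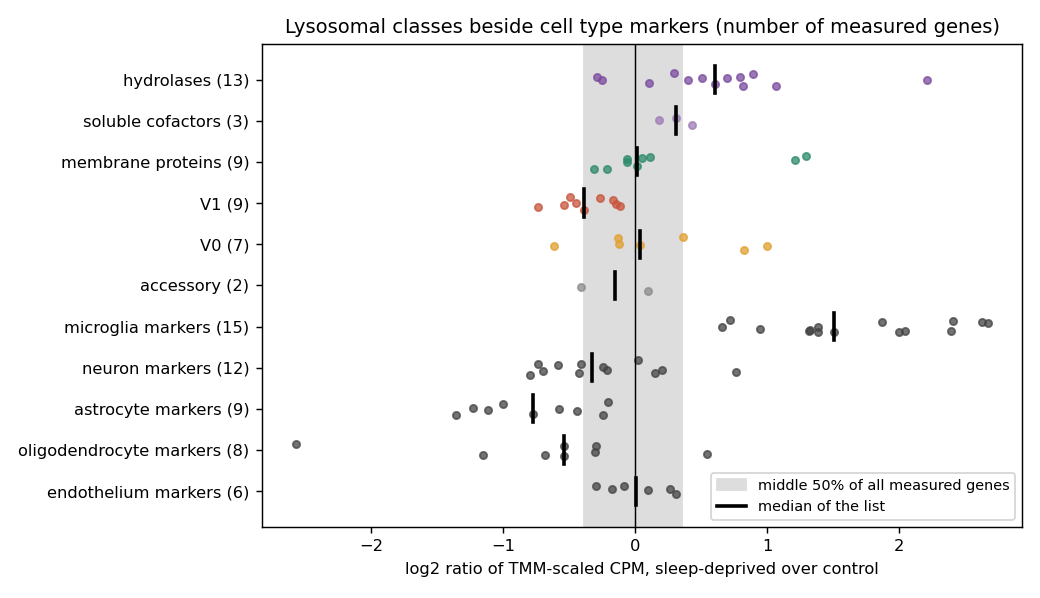
Log2 ratio of TMM-scaled CPM, sleep-deprived over control, for each measured gene of the lysosomal classes and of the marker lists of 5 cell types, with a bar at each list's median and the middle 50% of all measured genes shaded. The hydrolases have a median of 0.60, the V1 genes one of -0.39, microglial markers one of 1.51 and astrocyte markers one of -0.78.

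The classes lay between the marker lists of the cell types. The hydrolase median of 0.60 on the log2 scale was below that of the microglial markers (1.51), and the V1 median of -0.39 was near those of the neuronal markers (-0.33) and the oligodendrocyte markers (-0.54). The middle 50% of all measured genes ran from -0.38 to 0.35. The share of each member's message that came from microglia was not measured.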

How the data were processed

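The deposited files give, per transcript, the authors' estimated counts (not normalized), TPM (scaled by effective length) and effective lengths, per the file headers. The submitters' processing notes name Salmon, DESeq2 and the build mm10 without roles or versions, and neither annotation nor strand setting is given in the sources used here. Reads shared by similar transcripts or overlapping genes are divided by a model, so such values are uncertain.

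Transcripts were matched by identifier to GENCODE mouse release 21 on GRCm38 (115898 of 116546), and estimated counts were summed per gene. Reads on unmatched transcripts, 0.339% to 0.366% of a file, were left out. Over genes with at least 20 reads, files within a group were closer than sampling noise, so their mean, rounded to whole numbers, was used as 1 library. The planned edgeR quasi-likelihood test was therefore not run, and the spread between mice was not measured. Genes passing edgeR 4.0.16 filterByExpr (minimum count 10, R 4.3.3) were scaled by TMM. Ratios have exact conditional (Clopper-Pearson) 95% intervals, which cover counting error only, since reads are not independent molecules. A library under 3 reads was set to 3. TPM was used only for levels within a library and shares within a family.

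Members and lists were chosen with earlier results of these data known. Values in every file are given for called members, for the highest and lowest TPM and ratio of each class, for Tfeb, and for paralogous pump genes; other members are given by ratio. Outside the members, called genes and at most 2 others a list by TPM are named, apart from a result that is not reported here. Lgmn, Ctsd, Lamp2 and Atp6v0d1 were given in every file after their values were seen. Motifs were counted in RefSeq windows. Alternatives were DESeq2 1.42.0 size factors, total reads, protein-coding transcripts only, a transcript-length offset, no filter, a 1.5-fold rule and leaving out each file.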

Additional observations from a re-analysis of the deposited data

How the results depend on the processing

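Ctss, Ctsc and Laptm5 were called higher under every setting tried, and Cd68 under every setting except the transcript-length offset. With protein-coding transcripts only, 8 members were higher and 1 was lower (6.67% and 6.00% of all genes tested there), the median log2 ratio of the hydrolases was 0.79 and that of the V0 genes -0.17. With the transcript-length offset 3 members were higher, and the median of the membrane proteins was -0.13. With no low-count filter the median of the V1 genes was -0.16, where 4 V1 genes with a mean of at most 4 reads a library entered and the median of all genes moved to 0.10. At 1.5-fold 12 members were higher and 2 lower (Atp6v0d1 and Atp6v1a), where 12.5% and 13.6% of all measured genes were. With total reads 4 members were higher. Leaving out each file in turn gave 4 to 5 members higher, 0 lower, and hydrolase medians between 0.58 and 0.61. Such runs could shift little, because the files of a group were closer than sampling noise, so they are no check on the results. The cause of the shifts between settings was not tested. Of the 44 single ratios, 9 left their interval with protein-coding transcripts only, 14 with the length offset, 1 with total reads and 0 with DESeq2 size factors or when a file was left out. Ratios passed to the other side of 1 for Atp6v0c, Atp6v1d, Cd63 and Neu1 with protein-coding transcripts only, and for Atp6v0c, Atp6v0e2, Ctsb, Ctsl and Npc1 with the length offset. No paired analysis was possible because the files of a group count as 1 sample. With 1 library per group, depth bounds counting error only, and a difference between mice or pulldowns cannot be told apart from one between conditions.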

Other observations

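Transcripts with retained introns held 16.4% of member reads in the control library and 15.7% in the sleep-deprived one, where they held 10.6% and 13.3% of the reads of all genes. Without Mcoln1, left out after the data were seen, the members' share was 11.7% and 11.6%, so that in the sleep-deprived library it was below that of all genes. Protein-coding transcripts held 82.2% and 82.3% of member reads, against 80.0% and 77.8% over all genes. For Mcoln1 a single retained-intron transcript took 70.0% and 70.4% of its reads in control, against 68.6% and 68.0% in sleep-deprived files.

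Markers of other immune cells were sparse. Of 6 markers of border macrophages 5 were measured and 3 were higher. All 6 summed to 8.16 and 7.85 CPM in control and 12.8 and 12.7 CPM in sleep-deprived files, a ratio of 1.57 (1.24 to 1.99). Of 5 monocyte and neutrophil markers 2 were measured and 1 was higher. All 5 summed to between 1.20 and 2.12 CPM in a file, with a ratio of 1.71 (0.920 to 3.28). The 6 endothelial markers had a summed ratio of 0.991 (0.934 to 1.05).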
